A study of Homo sapiens with 16 samples.

Results

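The Argonaute 2 (Ago2) peaks that lie in protein-coding sequence were examined in human embryonic kidney cells, 949 of the 4718 peaks with distinct values in the authors' deposited table (20.1%). They are all peaks whose annotation class is coding exon (CDS), and 22 pairs of entries with the same gene and identical values were counted once, so that 971 entries gave 949 peaks. They fell in 694 of the 2213 genes with any peak, on 23 chromosomes. All 971 entries carry identifiers of protein-coding RefSeq transcripts. Such transcripts also contain untranslated regions, so the class itself rests on the authors' annotation and was not checked.

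The cells were 293S, an established line grown as a monolayer, either untreated or given 1 µM hippuristanol for 30 min. Hippuristanol inhibits eIF4A, the helicase that unwinds the 5′ leader of mRNAs so that the small ribosomal subunit can load. Each treatment had 2 cultures (biological replicates per the series text), and each culture gave 1 RNA-seq library and 3 libraries of RNA crosslinked to Ago2 (CLIP), precipitated with antibodies from Abnova, Santa Cruz and Sigma, so the labels describe 12 CLIP and 4 RNA-seq libraries. The question that the peaks address is how Ago2 contacts on mRNA differ between cells with and without the inhibitor.

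Each peak has 1 log average over both treatments and 1 log ratio of hippuristanol over untreated, both normalized and pooled over libraries by the authors. Read depth, replicate spread and antibody are therefore unknown for every peak, no difference below has a replicate check, and no test was made. Neither labels nor header name the log base, so values are in the authors' log units: treated and untreated differ by a factor of that base where the log ratio is 1, and no folds are given. None of 14 marker genes of blood, liver, muscle, epithelial, glial or connective tissue cells had a peak of any class. Most genes have none: among genes matched to a transcript, 2024 had a peak and 16943 had no peak. The absence of marker peaks therefore says little about the cells.

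Ago2 is the protein that holds a microRNA and pairs its seed, the bases near the 5′ end, with a target RNA. Most well-studied sites lie in 3′ untranslated regions (3′ UTRs), and sites in coding sequence must share the mRNA with elongating ribosomes, which displace bound proteins as they pass. Coding sequence is thus the region where elongating ribosomes and Ago2 can meet, and an inhibitor of initiation lowers the number of ribosomes on most mRNAs.

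The microRNAs whose seed matches were counted below are shown first, because the words searched in coding sequence derive from them. The sequences are RefSeq mature microRNAs, 5′ to 3′, with the seed (bases 2 to 8) in capitals.
let-7a: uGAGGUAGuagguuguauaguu
miR-17: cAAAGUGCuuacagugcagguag
miR-19b: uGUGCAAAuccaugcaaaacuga
miR-92a: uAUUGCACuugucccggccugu
miR-130b: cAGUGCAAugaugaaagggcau
miR-181a: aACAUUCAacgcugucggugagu
A let-7 match is thus CTACCTC, a miR-17 match GCACTTT, a miR-19 match TTTGCAC, a miR-25/92 match GTGCAAT, a miR-130 match TTGCACT and a miR-181 match TGAATGT. The miR-19 and miR-130 words overlap each other, so a single stretch can count for both.

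DICER1, which encodes the nuclease that cuts microRNA precursors, shared the highest number of CDS peaks and is known as a let-7 target through its coding sequence. Its annotated coding sequence (5490 nt, GENCODE 29 transcript ENST00000541352.5 on GRCh38) holds 4 let-7 matches, given here with 10 bases on each side and the match in capitals. They were picked for display after values were seen.
DICER1 CDS position 2635, exon 15 of 25: atactgtgttCTACCTCttaatgttgt
DICER1 CDS position 3641, exon 20: gtgcaaccaaCTACCTCatattccatt
DICER1 CDS position 3749, exon 20: gctaacaaatCTACCTCagatggaagt
DICER1 CDS position 5139, exon 23: cgattttggaCTACCTCataaccaagc
On GRCh38 the matches lie on the minus strand of chromosome 14, at 95107889 to 95107895, 95103749 to 95103755, 95103641 to 95103647 and 95094107 to 95094113. Peaks are in hg19 coordinates and were not placed on this sequence, so which peak, if any, covers which match is not given.

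UBE3C, an E3 ubiquitin ligase with 1 of the 12 highest log ratios, holds 3 miR-130 matches in a short stretch of its coding sequence (3252 nt, ENST00000348165.9, plus strand of chromosome 7).
UBE3C CDS position 494, exon 6 of 23: agtttgaatgTTGCACTtccaatgaga
UBE3C CDS position 595, exon 6: tgaacaaattTTGCACTacatgattca
UBE3C CDS position 733, exon 7: tctaaaaccaTTGCACTttacttacaa
The 3 matches are at 157178725 to 157178731, 157178826 to 157178832 and 157181634 to 157181640 on GRCh38. Each of the 3 stretches shown also holds another counted word: that of miR-181 at position 494, miR-19 at 595 and miR-17 at 733. UBE3C was picked for display after values were seen. Among genes with a CDS peak, the median log ratio was lower with a miR-130 match (0.12) than without (0.17).

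Some zinc finger genes show another arrangement, in which the miR-181 word recurs along the tandem fingers. Of the 18 C2H2 genes with a CDS peak, 4 hold 9 or more matches, 5 hold 1 to 4 and 9 hold none. ZNF14, a transcription factor gene with 1 CDS peak, holds 10 matches in 1929 nt (ENST00000344099.3, minus strand of chromosome 19, exon 4 of 4), and these are examples.
ZNF14 CDS position 507: tgaagccctaTGAATGTaaacagtgtg
ZNF14 CDS position 591: agaaaccctaTGAATGTaagcaatgtg
ZNF14 CDS position 753: agaaaccctaTGAATGTaagcaatgtg
ZNF14 CDS position 921: agaaaccctaTGAATGTaaagaatgtg
The bases around the word are nearly the same each time. These 4 lie at 19712768 to 19712774, 19712684 to 19712690, 19712522 to 19712528 and 19712354 to 19712360 on GRCh38. Over the 4 genes with most matches, ZNF14, ZNF180, ZNF567 and ZNF841, there are 41, all starting at codon base 3. The steps from one match to the next are whole multiples of 84 nt, the length of a C2H2 finger with its linker, in 8 of 9 cases in ZNF14, 8 of 8 in ZNF841, 5 of 10 in ZNF180 and 4 of 10 in ZNF567. A C2H2 finger is a short zinc-binding unit that repeats in tandem in these proteins.

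Of the 694 genes, 446 had peaks in CDS alone, 212 also had peaks in the 3′ UTR, 14 also in the 5′ UTR and 22 in all 3 regions. Most genes (559) had 1 CDS peak, 90 had 2, and 5 genes had 9 or 10. Peak lengths ranged from 10 to 133 nt around a median of 36 nt, against 39 nt for 3′ UTR peaks. Coding sequence was thinly covered: it held 24.0 peaks per 100 kb of annotated sequence in genes with a peak of any class, against 33.2 in 5′ UTRs and 70.1 in 3′ UTRs.

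Coding-sequence peaks were, in the middle of their range, slightly higher in treated cells, and differed little from peaks elsewhere. Their log ratios ran from −2.09 to 3.18 with a median of 0.20 and an SD of 0.72. The median was 0.15 in 3′ UTRs, 0.25 in 5′ UTRs, 0.08 in non-coding RNAs and 0.15 over all peaks. Of the CDS peaks, 590 (62.2%) lay above 0, and 499 (52.6%) lay above the median of all peaks.

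The ends of the distribution were also close to those of the whole table. A log ratio above 1 was held by 120 CDS peaks (12.6%), where 11.3% of all 4718 peaks lie above 1. A log ratio below −1 was held by 45 (4.74%), where 4.22% of all peaks lie below −1. The preponderance of high over low values rests partly on the offset of the table: relative to the median of all peaks, 84 CDS peaks lay above 1 and 63 below −1. Just inside the upper limit was HIGD2A at 1.004 in the authors' deposited table, and just outside it was CSE1L at 0.997. At the lower limit the authors' deposited table had SFPQ at −1.03 inside and ADAMTS1 at −0.99 outside. These limits are round numbers, and values continue on both sides of each.

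**Figure D1:**
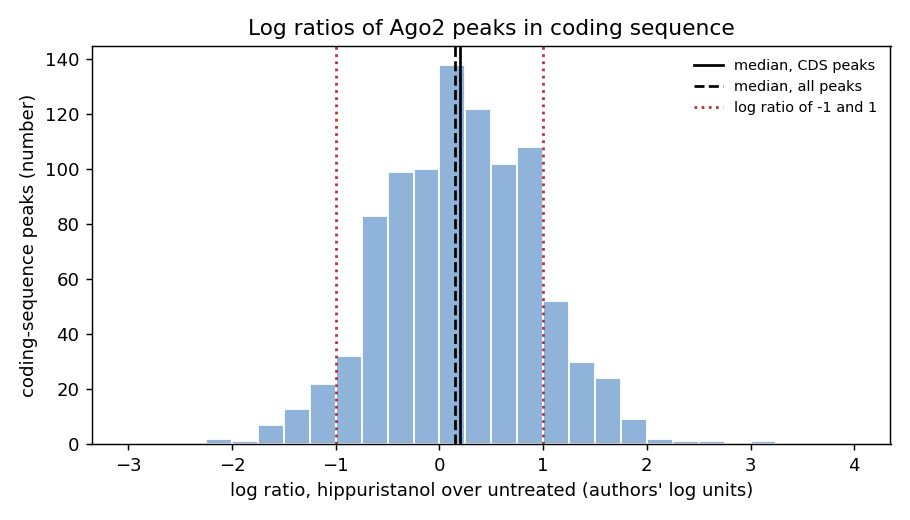
Number of coding-sequence peaks by log ratio of hippuristanol over untreated, in the authors' log units (x axis, bins of 0.25). The solid line is the median of the 949 CDS peaks (0.20) and the dashed line that of all 4718 peaks (0.15); 120 CDS peaks lie right of the dotted line at 1 and 45 left of that at −1.

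The log average itself shows how its values were made, and gives a level for each treatment. The log average plus 0.5 of the log ratio took exactly equal values, to 8 decimals, in 78 peaks of 31 genes, and the log average minus 0.5 of it in 107 peaks of 50 genes. Every shared value lay inside a single gene, and weights of 0.25, 0.75 and 1, added or subtracted, gave 0 shared values. The log average was therefore read as the midpoint of a treated and an untreated log level, and both levels were computed. This reading was made after the values were seen.

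On that reading the median CDS peak stood at −7.27 in untreated and −7.01 in treated cells. The log average had a median of −7.14, against −6.46 for 3′ UTR peaks. Peaks of the same gene had similar log averages: the within-gene SD had a median of 0.24 over 135 genes with at least 2 CDS peaks, while the SD over all CDS peaks was 1.79. The authors' normalization is not described in the labels or header, so levels of different genes are not compared as amounts of Ago2.

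**Figure D2:**
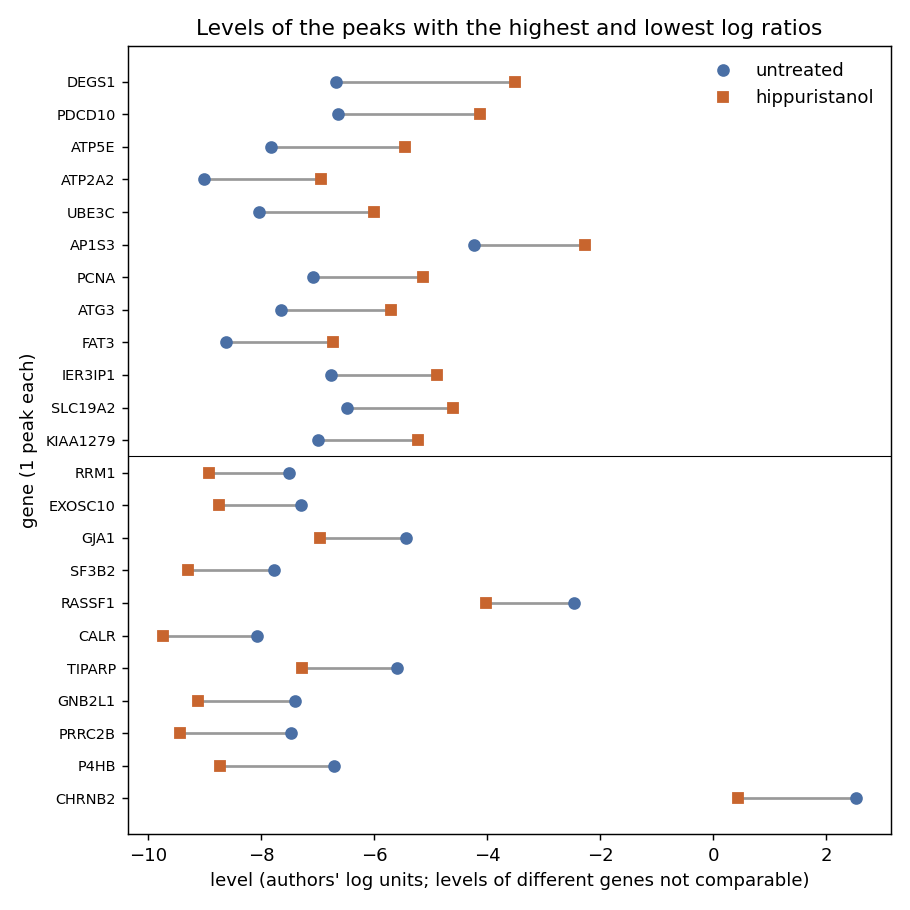
Untreated (circles) and hippuristanol (squares) log levels, in the authors' log units, of 1 peak in each of the 12 genes with the highest log ratios (upper block) and 11 of the 12 with the lowest (lower block). DEGS1 goes from −6.69 to −3.50 and CHRNB2 from 2.53 to 0.43; positions of different genes on the x axis are not comparable.

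The highest log ratio in the authors' deposited table, 3.18, was in DEGS1, the desaturase that makes ceramide from dihydroceramide (hg19 chromosome 1, 224377766 to 224377789, plus strand). Its levels were −6.69 untreated and −3.50 treated. A second DEGS1 peak (224377461 to 224377503) had 1.56 in the authors' deposited table, so both of its CDS peaks lay above 1. DEGS1 had no other CDS peak.

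PDCD10, an adaptor protein of endothelial junctions and vesicle traffic, followed with 2.51 in the authors' deposited table (chromosome 3, 167405454 to 167405479, minus strand), from −6.64 to −4.13. ATP5E, a small subunit of the mitochondrial ATP synthase, had 2.36 in the authors' deposited table (chromosome 20, 57605430 to 57605469, minus strand), from −7.83 to −5.46. Each of these genes had a single CDS peak, so nothing in the table repeats the value within the coding sequence.

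ATP2A2, which pumps calcium into the endoplasmic reticulum, had 3 CDS peaks on chromosome 12 listed at 0.41, 1.40 and 2.08 in the authors' deposited table. The peaks with 1.40 (110783095 to 110783123) and 2.08 (110783124 to 110783155) adjoin, and the peak with 0.41 lies upstream, at 110780073 to 110780125. All 3 lay above the median of all peaks. SLC19A2, a thiamine transporter, had 1.87 and 1.64 in the authors' deposited table, at peaks far apart on chromosome 1 (169446904 to 169446964 and 169439206 to 169439235, minus strand). It was the gene besides DEGS1 among these 12 with 2 CDS peaks both above 1.

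Other genes with a very high peak had a second one that was lower. UBE3C had 2.04 in the authors' deposited table for a peak at 156974325 to 156974362 of chromosome 7 and 0.74 for one that overlaps it at 156974321 to 156974340. PCNA, the sliding clamp of DNA replication, had 1.95 and 0.53 in the authors' deposited table, and IER3IP1, a small protein of the secretory pathway, had 1.88 and 0.85. KIAA1279, which binds kinesins, had 1.78 and −0.05 in the authors' deposited table. The UBE3C pair overlaps in part and still differs in its ratios.

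The remaining members of the highest 12 had 1 peak each. In the authors' deposited table these were AP1S3, a clathrin adaptor subunit, at 1.97, ATG3, which conjugates LC3 in autophagy, at 1.95, and FAT3, an atypical cadherin, at 1.90. Their treated levels were −2.27, −5.71 and −6.73, and their untreated levels −4.24, −7.65 and −8.63.

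At the other end, the lowest log ratio in the authors' deposited table was −2.09 in CHRNB2, a subunit of neuronal nicotinic acetylcholine receptors (chromosome 1, 154544609 to 154544630, plus strand). It also had the highest log average of any CDS peak, 1.48, with levels of 2.53 untreated and 0.43 treated. P4HB, protein disulfide isomerase of the endoplasmic reticulum, had −2.01 in the authors' deposited table (chromosome 17, 79803782 to 79803816, minus strand), from −6.72 to −8.72. PRRC2B, an RNA-binding protein, had −1.97 in the authors' deposited table (chromosome 9, 134346193 to 134346257, plus strand), from −7.48 to −9.45. All 3 genes had 1 CDS peak.

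In the lowest 12, 3 genes had a second CDS peak, and in each it was above 0. GNB2L1, the ribosome-bound scaffold RACK1, had −1.73 and 0.13 in the authors' deposited table. CALR, a calcium-binding chaperone of the endoplasmic reticulum, had −1.67 (chromosome 19, 13051354 to 13051438) and 0.54 (13051128 to 13051159) in the authors' deposited table. RRM1, the large subunit of ribonucleotide reductase, had −1.42 and 0.82 in the authors' deposited table. These genes were picked for a very low peak, so a higher second peak says little about the rest of the coding sequence.

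Single low peaks were found in TIPARP, a mono-ADP-ribosyltransferase, at −1.69 and in RASSF1, a tumour suppressor, at −1.55, both in the authors' deposited table. SF3B2, a subunit of the U2 spliceosomal particle, had −1.53, GJA1, the gap junction protein connexin 43, −1.52, and EXOSC10, a nuclease of the nuclear exosome, −1.45 in the authors' deposited table. For the gap junction gene the levels were −5.43 untreated and −6.96 treated.

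The highest log averages were in short, lone peaks. The 8 highest lay in 8 genes with 1 CDS peak each, and were 21 to 27 nt long. After CHRNB2 came STK32C, a kinase, for which the authors' deposited table lists 0.02 as log average and −0.55 as log ratio, then MAPK8IP2, a scaffold of JNK signalling, with −0.24 and −0.32. MYO16, an unconventional myosin, had −0.25 as log average and 1.72 as log ratio in the authors' deposited table, from −1.11 to 0.61. RFXAP, SYMPK, KISS1R and C15orf59 completed the 8, with −0.03, −0.07, 0.80 and −0.50 as log ratios in the authors' deposited table. Log averages were higher for short peaks generally: the median was −6.57 for peaks of 10 to 25 nt, −7.09 for 26 to 48 nt and −7.64 for 49 nt or longer.

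Median log ratios of CDS peaks followed neither length nor log average in order, while peaks below −1 were fewer at higher log averages. In 4 groups of equal size by rising log average the median log ratios were 0.17, 0.23, 0.33 and 0.09, with SDs of 0.73, 0.72, 0.71 and 0.73. Peaks above 1 numbered 30, 29, 34 and 27 in these groups, and peaks below −1 numbered 18, 12, 9 and 6. Short peaks (10 to 25 nt, 216 peaks) had a median of 0.14 and an SD of 0.79, those of 26 to 48 nt 0.27 and 0.71, and those of 49 nt or longer 0.20 and 0.69.

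Genes with several CDS peaks had somewhat higher log ratios than genes with 1. The 390 peaks of the 135 genes with at least 2 had a median of 0.34, and 63 (16.2%) lay above 1 and 12 (3.08%) below −1. The 559 lone peaks had a median of 0.12, with 57 (10.2%) above 1 and 33 (5.90%) below −1. Of the 390 peaks, 79 overlap another peak of their gene, so they are not independent of each other.

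Peaks of the same gene nevertheless varied widely. The within-gene SD of the log ratio had a median of 0.54, against 0.72 over all CDS peaks. Of the 135 genes, 90 had only 2 CDS peaks, and the SD of 2 values tends to come out low. The lower within-gene SD therefore does not show that peaks of a gene are alike. Neighbouring peaks that overlap differed by a median of 0.27 (41 pairs), those at most 100 nt apart by 0.68 (37 pairs) and those further apart by 0.75 (177 pairs, distances on the genome, introns included). Of the 45 genes with at least 3 CDS peaks, 9 had every peak above the median of all peaks, 2 had every peak below it and 34 had peaks on both sides.

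DICER1 had 10 CDS peaks, none overlapping, between 95569814 and 95595852 on the minus strand of chromosome 14 (hg19). In ascending genome order the authors' deposited table lists 1.37, 0.57, 0.81, 1.58, −0.41, 0.95, 0.49, 1.42, 0.85 and 0.03. Their median was 0.83, 8 lay above the median of all peaks, and 3 above 1. The 10 peaks in its 3′ UTR had a median of 0.13, with 4 above the median of all peaks. The median untreated and treated levels of the CDS peaks were −8.76 and −7.84.

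IRS4, an insulin receptor substrate known to be abundant in embryonic kidney lines, had 9 CDS peaks and no 3′ UTR peak. Its log ratios in the authors' deposited table ran from −0.04 to 1.11 with a median of 0.58. The 5 peaks nearest one another, between 107975807 and 107976095 on chromosome X, had 0.50, 0.58, 0.85, 1.11 and 0.78 in the authors' deposited table, and the other 4 had 0.09, 0.76, 0.12 and −0.04. The clustered peaks were thus all at about 0.50 or above, as was 1 of the other 4, and 3 of the 9 overlap another.

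HNRNPA2B1, an abundant nuclear RNA-binding protein, had 10 CDS peaks with a median of 0.22, and DDX3X, an RNA helicase of translation initiation, had 9 with a median of 0.32. MAZ, a zinc finger transcription factor, had 9 with a median of −0.13. Of the 12 genes with the most CDS peaks, 10 also had 3′ UTR peaks, and the CDS median was the higher in 5 and the lower in 5. It was higher in MAZ, where the 3′ UTR median was −0.45, and lower in HNRNPA2B1 (0.35 in the 3′ UTR), DDX3X (0.40), HNRNPU (0.30) and ACTB (0.92). Medians of the genes with 6 CDS peaks were 0.62 for ACTG1 (gamma actin), 0.18 for EEF2 (the translocation factor of elongation), −0.01 for DDX5 (a helicase), −0.29 for HNRNPU (a nuclear scaffold protein), −0.25 for WDR6 and 0.03 for ZNF711. ACTB, beta actin, had 5 peaks with a median of 0.21. Reads from actin genes and their near-identical copies may not be told apart, depending on how the authors mapped them.

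**Figure D3:**
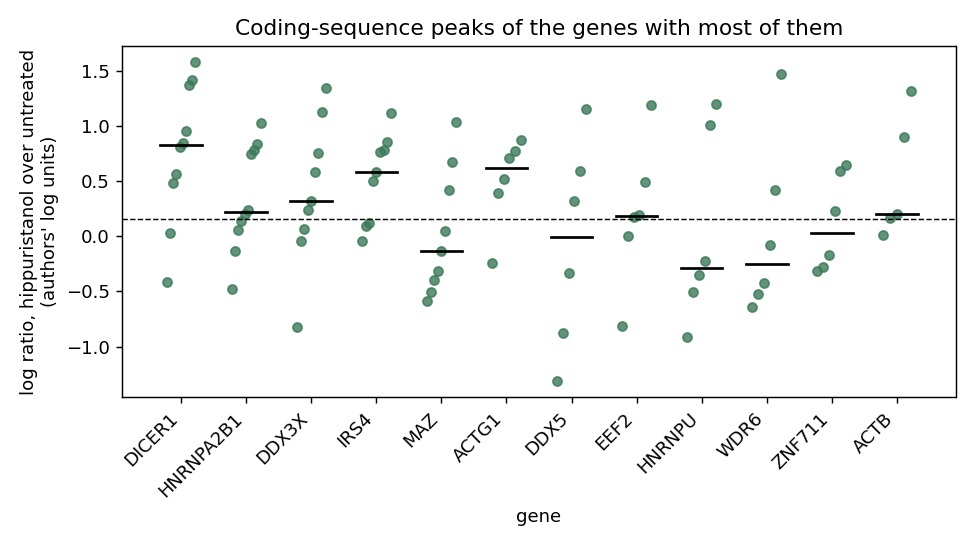
Log ratio, in the authors' log units, of each CDS peak (points) in the 12 genes with the most CDS peaks, with the gene median (bar) and the median of all peaks (dashed line, 0.15). ACTB was taken by name order from 7 genes tied at 5 CDS peaks. DICER1, IRS4 and ACTG1 have medians of 0.83, 0.58 and 0.62, while DDX5 runs from −1.31 to 1.15.

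Among the 18 genes with at least 5 CDS peaks, 12 had a median above that of all peaks and 14 had a peak above 1. Over the 118 peaks of these genes 18 (15.3%) lay above 1, beside the background of 11.3%, and a gene with many peaks has more chances to hold one. A peak below −1 was found in 2 of the 18, the helicase gene DDX5 (−1.31) and MLL2 (−1.22), a histone methyltransferase gene, in the authors' deposited table. These were named after their values were seen. DDX5 also had a peak at 1.15 and MLL2 one at 0.85, so both genes held values far apart.

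Genes with at least 3 CDS peaks that all lay on one side of the median of all peaks were also looked at after the values were seen. Every peak exceeded that median in ATP2A2, CLPTM1, HIST1H1C, HMGB2, HSPA8, RBM12, RPL28, SRSF1 and TMBIM6. CLPTM1, a membrane protein, had 4 CDS peaks at 0.72, 0.98, 1.24 and 1.28 in the authors' deposited table. All peaks lay below it in 2 ribosomal protein genes, RPLP1 (−0.96 to −0.48 over 3 peaks) and RPL37A (−0.18 to 0.07 over 3 peaks), in the authors' deposited table.

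For 234 genes with peaks in both the CDS and the 3′ UTR, the log ratios in one region said little about those in the other. The gene medians of the 2 regions had a Pearson r of 0.0685 and a Spearman rho of 0.0501 across genes, which are a description and not replicates. The CDS median was higher in 123 genes and lower in 111, with a median difference (CDS minus 3′ UTR) of 0.053 and quartiles of −0.47 and 0.66. Log averages of the same 234 genes had an r of 0.911, and the CDS was lower in 148 and higher in 86, with a median difference of −0.17.

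**Figure D4:**
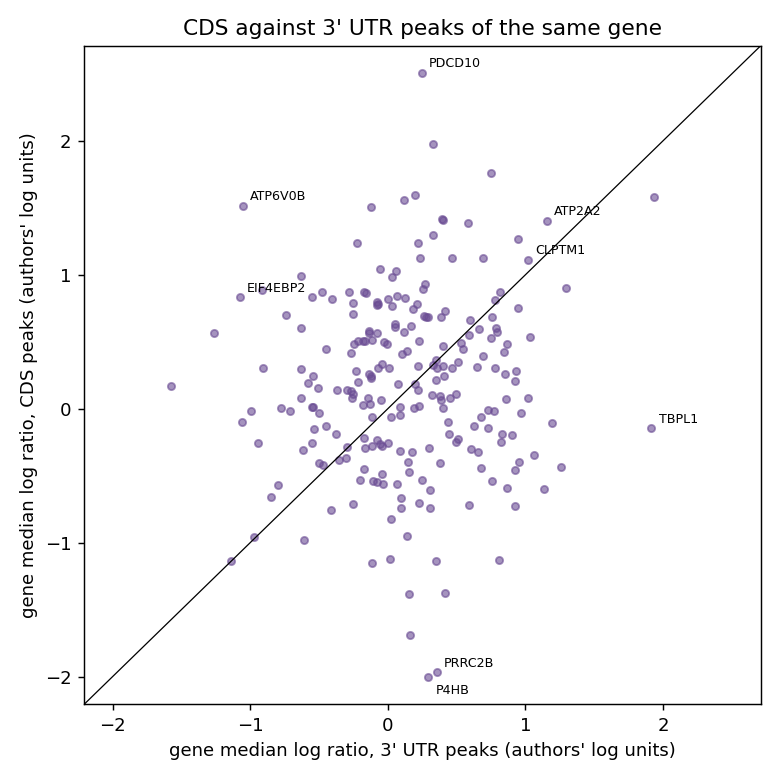
Median log ratio of the CDS peaks (y axis) against that of the 3′ UTR peaks (x axis) in 234 genes with both, in the authors' log units, with the line of equality. Points are spread on all sides (r of 0.0685), with 123 genes above the line and 111 below it.

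A CDS median above 1 was found in 22 of the 234 genes, a 3′ UTR median above 1 in 11, and both in 3. The 3, named after their values were seen, were ATP2A2 (1.40 in CDS, 1.16 in 3′ UTR), CLPTM1 (1.11 and 1.02) and ELOVL5, a fatty acid elongase (1.58 and 1.94). Medians below −1 were found in 10 genes for the CDS, in 6 for the 3′ UTR and in 1 for both. The CDS value was often a single peak where the 3′ UTR value was a median of several (1 and 28 peaks in BTG2). These counts of the 2 regions are therefore not on equal terms. Over single peaks of all genes, 12.6% of CDS and 11.6% of 3′ UTR peaks lay above 1, and 4.74% and 4.42% below −1.

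The largest differences in favour of the CDS were in ATP6V0B and PDCD10. ATP6V0B, a membrane subunit of the vacuolar proton pump, had 1.52 in the CDS and −1.05 in the 3′ UTR in the authors' deposited table, with 1 peak in each. PDCD10 had 2.51 and 0.25. EIF4EBP2, a repressor of the cap-binding protein eIF4E, had 0.83 in the CDS, and its 3 peaks in the 3′ UTR were listed at −1.07, 0.65 and −1.32 in the authors' deposited table. RBM12, DEK and ATXN2L, all coding for RNA- or chromatin-bound proteins, had differences of 1.82, 1.80 and 1.75. For these last 3 the 3′ UTR value was 1 peak, below −0.9 in each.

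The largest differences in favour of the 3′ UTR were in PRRC2B and P4HB, at −2.32 and −2.30. The 6 3′ UTR peaks of PRRC2B ran from −1.18 to 1.09 in the authors' deposited table, all above the −1.97 of its CDS peak. P4HB had 1 peak in each region, −2.01 and 0.29. TBPL1, a relative of the TATA-binding protein, had −0.14 in the CDS and 1.92 in the 3′ UTR in the authors' deposited table. AFF4, a scaffold of the super elongation complex, TIPARP and DYNLL2, a dynein light chain, had differences of −1.94, −1.85 and −1.79. DYNLL2 had 9 3′ UTR peaks, from −0.47 to 1.37 in the authors' deposited table, against −1.38 in the CDS.

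Having a 3′ UTR peak made little difference to the CDS values. The 408 CDS peaks of genes with a 3′ UTR peak had a median log ratio of 0.24, and the 541 of genes without one had 0.16.

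Gene groups were described next by name-based lists, which hold 224 of the 694 genes, beside the median of all peaks (0.15) and the background of 11.3% above 1 and 4.22% below −1. Taken over peaks, the small RNA machinery had the highest list median, 0.57 over 17 CDS peaks of 6 genes, with 5 above 1 and none below −1, and 10 of the 17 peaks are in DICER1. With 1 value per gene its median was 0.38, below lipid and sterol synthesis (0.55), cytosolic chaperones (0.50) and C2H2 zinc finger genes (0.50). Both CDS peaks of DROSHA, the nuclease that cuts primary microRNAs, had 1.04 in the authors' deposited table. Its partner DGCR8 had 0.31, EIF2C2, the gene of Ago2 itself, 0.04, and CNOT1, the scaffold of the deadenylase complex, 0.44 in the authors' deposited table. TNRC6A, the GW182 protein that binds Argonaute, had 0.39 and −0.59.

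Solute carriers and ion pumps had a median of 0.42 over 15 peaks of 12 genes (0.25 with 1 value per gene), with 6 above 1 and none below −1. The 6 are in 4 genes: 2 in ATP2A2, 2 in SLC19A2, 1 in ATP6V0B and 1 in SLC16A9 (1.30 in the authors' deposited table), a monocarboxylate transporter family member. The lowest value of the list was −0.64 in SLC9A5, a sodium-proton exchanger. Lipid and sterol synthesis had a median of 0.55 over 8 peaks of 6 genes, with 3 above 1, both of DEGS1 and that of ELOVL5. SCD, the stearoyl-CoA desaturase, had both of its peaks below the others, at −0.62 and −0.56 in the authors' deposited table.

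C2H2 zinc finger genes had a median of 0.46 over 26 peaks of 18 genes, with 4 above 1 and none below −1. Above 1 were ZNF317 (1.72), ZNF14 (1.28), ZNF238 (1.03) and 1 of 2 peaks of ZNF770 (1.03) in the authors' deposited table. The peaks of the other zinc finger genes with recurring miR-181 words had 0.74 in ZNF180, 0.84 in ZNF841 and −0.19 in ZNF567 in the authors' deposited table. Cytosolic chaperones, a list that also takes in the mitochondrial HSPD1, had a median of 0.50 over 17 peaks of 11 genes, with 3 above 1 and 1 below −1. These were TCP1, a subunit of the cytosolic chaperonin, at 1.51, HSP90AA1 with 1 of 5 peaks at 1.12, HSPD1 at 1.03, and HSPA4 at −1.26 in the authors' deposited table.

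Translation initiation and elongation factors had a median of 0.31 over 15 peaks of 8 genes, with 3 above 1 and none below −1. EIF4G2, an initiation factor that works without cap-binding eIF4E, had 1.20 and 1.39 in the authors' deposited table, and EEF2 had 1 peak of 6 at 1.19. EIF4A2, a member of the eIF4A family that the drug inhibits, had 0.31, EIF4G1, the initiation scaffold, 0.08, and PABPC1, the poly(A)-binding protein, −0.54 in the authors' deposited table. Aminoacyl-tRNA synthetases were represented by GARS, from −0.56 to 1.75 over 3 peaks, and EPRS at −0.68 in the authors' deposited table.

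Ribosomal protein genes had a lower median, −0.03 over 39 peaks of 29 genes, with 2 above 1 and 4 below −1. Above 1 were RPS14 (1.35 for 1 of 3 peaks) and RPLP0 (1.24), and those below −1 included GNB2L1, RPL23 (−1.22) and RPS4X (−1.12) in the authors' deposited table. RPL10, with the list's highest log average, had 0.22, RPS15 −0.61 and RPS25 −0.72 in the authors' deposited table. Ribosomal protein genes have many processed pseudogenes, so how reads were shared between copies is uncertain.

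Genes of folding and secretion in the endoplasmic reticulum had a median of −0.02 over 21 peaks of 16 genes, with 3 above 1 and 4 below −1. The 4 low peaks were in P4HB, CALR, HSP90B1, the lumenal HSP90 (−1.15), and RCN2, a calcium-binding protein (−1.15), in the authors' deposited table. The 3 high ones were in PDIA6, a disulfide isomerase (1.46), COPG1, a coat subunit (1.07), and RCN2 again, whose other peak had 1.05 in the authors' deposited table. Histones had −0.27 over 15 peaks of 10 genes, with 1 above 1, in the linker histone H1FX (1.22), and 3 below −1, in HIST1H2AC (−1.27), HIST1H2AG (−1.25) and HIST1H4E (−1.10), in the authors' deposited table. Core histone genes are near-identical copies, so these values are uncertain as to gene. Chromatin regulators had −0.34 over 18 peaks of 12 genes, with none above 1 and 1 below −1, in MLL2.

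**Figure D5:**
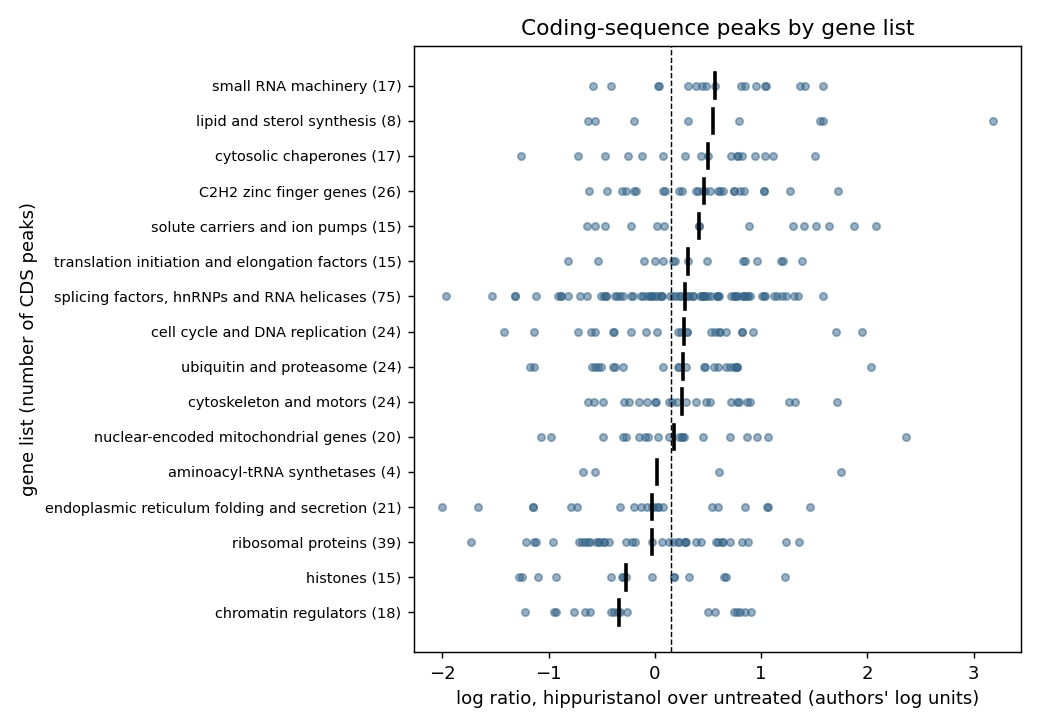
Log ratio, in the authors' log units, of each CDS peak (points) by gene list, with the number of CDS peaks in brackets, the list median (bar) and the median of all peaks (dashed line, 0.15). List medians run from −0.34 for chromatin regulators to 0.57 for the small RNA machinery, and the points of most lists span both sides of the dashed line.

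The other lists lay near the median of all peaks. Splicing factors, hnRNPs and RNA helicases had 0.28 over 75 peaks of 26 genes (0.17 with 1 value per gene), with 10 above 1 and 5 below −1. Cell cycle and DNA replication had 0.27 over 24 peaks (0.036 with 1 value per gene), with PCNA (1.95) and the mitotic cyclin CCNB1 (1.70) above 1, and RRM1 (−1.42) and the replicative helicase subunit MCM7 (−1.14) below −1 in the authors' deposited table. Ubiquitin and proteasome genes had 0.26 over 24 peaks, the cytoskeleton 0.25 over 24 and nuclear-encoded mitochondrial genes 0.18 over 20. In the mitochondrial list ATP5E stood far above the rest, followed by the import receptor TOMM70A at 1.06 in the authors' deposited table.

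Log ratios of CDS peaks were lower in genes with GC-rich coding sequence. For 680 of the 694 genes (98.0%) a GENCODE 29 transcript was found, and over 4 groups of 170 genes with median GC contents of 41.4%, 46.4%, 53.2% and 61.2% the median log ratios were 0.23, 0.32, 0.07 and 0.02. Gene values above 1 numbered 19, 25, 17 and 9 in these groups, and values below −1 numbered 11, 6, 8 and 8. Across the 680 genes rho was −0.159. The same order was present where no CDS peak was involved: the 3′ UTR log ratios of 1260 genes with a 3′ UTR peak and no CDS peak had a rho of −0.165 with the GC content of the CDS. GC content is that of the whole coding sequence and not of the peak, and its part in the list medians was not tested.

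Genes with a CDS peak had longer coding sequences and shorter 3′ UTRs than genes with a 3′ UTR peak and none in CDS. Median CDS lengths were 1518 nt and 1410 nt, against 1248 nt in 16943 genes with no peak. Median 3′ UTR lengths were 971.5 nt, 1649 nt and 677 nt in the same order, and median CDS GC contents were 49.2%, 51.2% and 53.0%. Among genes with a CDS peak, the median 3′ UTR length was 763.5 nt in 448 without a 3′ UTR peak and 1350.5 nt in 232 with one. The comparison group was chosen for having a 3′ UTR peak, so the contrast in 3′ UTR length rests partly on how the groups were formed.

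Seed matches of 10 microRNA families were counted on the sense strand of the coding sequence, overlapping matches included. All 10 words were denser in genes with a CDS peak than in genes with a 3′ UTR peak and no CDS peak, and 7 of 10 were denser than in genes with no peak. The gene sets were not matched for expression, length or GC content, and genes with no peak were not limited to expressed ones. The widest margin, as a ratio, was that of miR-25/92, with 6.07 matches per 100 kb in genes with a CDS peak, 3.51 in genes with a 3′ UTR peak alone and 3.50 in genes with none. miR-19 had 8.10, 5.17 and 4.75, miR-17 had 8.57, 6.53 and 5.39, and miR-130 had 6.21, 4.43 and 4.27. All 4 of these words contain GCA, so they are not independent of each other.

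The let-7 word had 10.1, 8.72 and 8.92 matches per 100 kb in the same order, and miR-181 had 13.0, 11.9 and 13.0. Of the 193 miR-181 matches in genes with a CDS peak, 41 lie in the tandem fingers of ZNF14, ZNF180, ZNF567 and ZNF841. The miR-181 density thus rests in part on this repeat, and the density without these genes was not computed. At least 1 let-7 match was held by 17.8% of the genes with a CDS peak, 13.3% of those with a 3′ UTR peak alone and 12.7% of those with no peak. The words of miR-15/16 (TGCTGCT; 33.7, 29.8 and 34.7) and miR-18 (GCACCTT; 7.15, 6.27 and 7.37) were about as dense in genes with no peak as in genes with a CDS peak. miR-10 (ACAGGGT) had 5.40, 4.65 and 4.23, and miR-30 (TGTTTAC) 5.53, 4.16 and 4.29.

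The same letters read backwards served as words of equal composition, an addition made after the values were seen. Of the 10 reversed words, 4 were denser in genes with a CDS peak than in genes with a 3′ UTR peak alone. The ratio of densities between these gene sets had a median of 1.24 for the seed matches and 0.914 for the reversed words. Against genes with no peak the medians were 1.28 and 1.02. For miR-25/92 the ratios to genes with a 3′ UTR peak alone were 1.73 for the match and 0.855 for its reverse, and for miR-19 they were 1.57 and 0.756, the pairs furthest apart. The match had the higher ratio in 9 of 10 families, and for miR-30 the reverse did (1.47 against 1.33). Against genes with no peak it was higher in 7, and the reverse was higher for miR-15/16 (1.35 against 0.971), miR-181 (1.13 against 0.999) and miR-30 (1.35 against 1.29). Of the reversed words 6 contain the dinucleotide CG, which is rare in the genome, and none of the matches does. The reversed words are thus not an equal background in that respect, and those of miR-25/92 and miR-19 are among the 6. Reversed words without CG are those of let-7, miR-10, miR-181 and miR-30. Their families had match and reverse ratios to genes with a 3′ UTR peak alone of 1.15 and 1.09 (let-7) and 1.16 and 0.862 (miR-10). For miR-181 these were 1.10 and 0.967, and for miR-30 1.33 and 1.47.

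Genes with a let-7 match in the CDS had a higher median log ratio of their CDS peaks, 0.32 over 121 genes, than the genes without, 0.12. Values with and without a match were 0.33 and 0.14 for miR-25/92, 0.29 and 0.13 for miR-17, 0.27 and 0.14 for miR-19, and 0.31 and 0.11 for miR-181. They were the other way round for miR-18 (0.11 and 0.17), miR-130 (0.12 and 0.17) and miR-10 (0.14 and 0.16). Over all 10 families, the median was higher with a match in 7. Genes with a match had the longer coding sequences in all 10 families (2343 nt against 1389 nt for let-7) and the lower GC content in 7, and the part of length and GC in these differences was not tested. A match anywhere in the coding sequence is a description of the transcript and does not place Ago2 on it.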

How the data were processed

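One table for the whole series was used. Per the file headers, its 2 value columns are a normalized CLIP log average over treated and untreated cells and a normalized log ratio of treated over untreated cells. They are treated as scores that the authors made, on a log scale whose base and normalization neither header nor labels name. The tools named in the submitters' processing notes are TopHat, DESeq and Bowtie 0.12.8, with hg19 as the build. The values are pooled over libraries, so the tests planned for values per sample were replaced by counts, medians and quartiles. Depth per library is unknown.

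Entries with the same gene and identical values were counted once, leaving 4718 of 4768. A log ratio beyond 1 or −1 was used as a limit for counting. Gene values are medians of a gene's peaks. RNA-seq and per-library values were not analysed here. Transcripts, lengths, GC content and seed matches come from GENCODE 29 (GRCh38), matched by RefSeq identifier or symbol, and microRNAs from RefSeq. No hg19 sequence was used here, and no coordinate was converted between builds.

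Named genes are the 12 highest and 12 lowest log ratios (1 peak per gene), the 8 highest log averages, up to 12 genes with the most CDS peaks, the 6 largest differences per direction between CDS and 3′ UTR, and in each list the extremes and up to 4 members with the highest log average. List members beyond 1 or −1, genes in counts of 5 or fewer and genes with sequences shown were chosen after values were seen, as was the naming of EIF4G1, PABPC1, CNOT1, DGCR8, EIF2C2, TNRC6A, SCD and the zinc finger genes. A few genes chosen this way are left unreported. Ties in the number of CDS peaks were cut by name order. Lists were built from gene-name patterns, so PSMC3IP sits among proteasome genes and CDC42EP1 among cell cycle genes. The members and lists were chosen with earlier results of these data known. Scripts ran in Python 3.11.15 with pandas 2.3.3, numpy 2.4.6 and scipy 1.17.1, and were tested on simulated data.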

Additional observations from a re-analysis of the deposited data

How the results depend on the processing

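Of 27 alternatives, 21 stayed within the limits set for a change, and 6 did not. Those limits were wide. Relative to the median of all distinct peaks, 84 CDS peaks above 1 in place of 120 counted as unchanged. So did 63 below −1 in place of 45. Counts of peaks have no direction to reverse, and the median log average lay far from 0. The median log ratio and the median difference between CDS and 3′ UTR could change sign, and neither did. The 6 alternatives beyond the limits are given next. Relative to the median of all distinct peaks, the median log ratio of CDS peaks was 0.045 in place of 0.20. With 1 value per gene, 71 genes lay above 1, in place of 120 peaks, and the median log average was −6.80 in place of −7.14. Keeping peaks with a log average at or above the lower quartile of the table left 79 peaks above 1 and 24 below −1, in place of 120 and 45, with a median log average of −6.37; this setting keeps fewer peaks by construction, as does taking 1 value per gene.

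No paired analysis was possible because the values are pooled over cultures and antibodies. Leaving out each replicate in turn could not be run for the same reason. Depth is unknown, so no difference between peaks can be set against counting error.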
